A study of Mus musculus with 5 samples.

Results

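The genes of the unfolded protein response (UPR) and the chaperones were followed in brain microvascular fragments of diabetic and control mice. The group holds 40 genes of the 34615 gene symbols in the data. They were chosen by name, through the identifiers that the mouse annotation of NCBIM37 pairs with each symbol. The rule uses no measured value, but the list was drawn up with earlier results of these data in view. By role, 9 are sensors, transcription factors or PERK arm targets of the UPR. Another 15 are chaperones and folding enzymes of the endoplasmic reticulum (ER). The rest are 4 genes of ER-associated degradation, 9 cytosolic chaperones, the heat shock transcription factor gene *Hsf1* and 2 mitochondrial chaperones. The comparison asked how ER and cytosolic chaperones stood to each other, and to WT, in Ins2-AKITA mice.

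RNA came from 5 male mice on a C57BL6 background, of 26 to 38 weeks of age, and each mouse gave 1 library. WT mice (n = 3) were littermates of the Ins2-AKITA mice (n = 2), which were heterozygous for the Akita allele of the insulin gene *Ins2*. All 5 brains were digested with collagenase A, and the vessel fragments were captured on magnetic beads carrying an antibody to the endothelial protein PECAM1. The labels name no treatment, and they tie no mouse to a litter, a cage or a library batch. In the Akita mouse the misfolded insulin is made in pancreatic beta cells, whose loss causes hyperglycemia, and the brain vessels were taken from that setting. The allele is a point mutation, so the level of *Ins2* checks no label. *Ins2* was listed at 0 FPKM in 4 mice and at 1.51 in WT replicate 3.

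Proteins destined for secretion or for membranes fold in the ER with the help of chaperones such as BiP, which *Hspa5* encodes. When unfolded protein accumulates there, 3 sensors in the ER membrane (IRE1, PERK and ATF6) start the UPR. IRE1, the product of *Ern1*, splices the mRNA of *Xbp1*. PERK, the product of *Eif2ak3*, slows translation and favours that of *Atf4*. The resulting transcription factors raise chaperones, degradation genes and, under lasting stress, *Ddit3*, which encodes the cell death factor CHOP. In the cytosol, heat and unfolded protein release HSF1, which drives the heat shock genes of the HSP70, HSP90, HSP40 and small heat shock protein families. The surface of brain endothelium is coated with glycoproteins that fold in the ER, and both systems are active at a basal level in most tissues.

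The promoters of 7 of the ER chaperones hold the same known motif. Windows from 250 bases before to 50 bases after each transcription start were read on both strands from RefSeq (GRCm38.p6), which held 33 of the 40 genes. *Atf6*, *Manf*, *Hyou1*, *Hspa8*, *Hsp90aa1*, *Hsp90ab1* and *Hsf1* had no window. The ER stress response element, CCAAT and CCACG with any 9 bases between them, was present in 37 of 27025 genes with a window (0.137%). It was present in 7 of the 13 ER chaperones and folding enzymes with a window and in the degradation gene *Syvn1*, and in none of the other members. The matches are printed here because they are the letters these chaperone promoters have in common; each is given 5′ to 3′ on the strand of its gene, with the element in capitals.
*Hspa5*, chr2:34772013-34772055, plus strand: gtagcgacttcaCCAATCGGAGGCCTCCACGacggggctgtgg
*Hsp90b1*, chr10:86705626-86705668, minus strand: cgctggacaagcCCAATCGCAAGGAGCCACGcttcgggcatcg
*Hsp90b1*, chr10:86705521-86705563, minus strand, element reversed: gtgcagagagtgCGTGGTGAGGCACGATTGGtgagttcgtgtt
*Calr*, chr8:84847063-84847105, minus strand, element reversed: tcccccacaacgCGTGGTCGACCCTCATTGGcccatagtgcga
*Canx*, chr11:50325788-50325830, minus strand: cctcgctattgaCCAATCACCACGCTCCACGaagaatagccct
*Pdia6*, chr12:17266479-17266521, plus strand: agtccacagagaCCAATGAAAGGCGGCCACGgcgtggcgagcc
*Dnajc3*, chr14:118937815-118937857, plus strand: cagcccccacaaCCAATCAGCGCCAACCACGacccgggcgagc
*Creld2*, chr15:88819508-88819550, plus strand, element reversed: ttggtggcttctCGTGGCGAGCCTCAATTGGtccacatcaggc
*Syvn1*, chr19:6046520-6046562, plus strand: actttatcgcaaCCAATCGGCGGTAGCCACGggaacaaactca

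The elements lay between -212 bases (*Hsp90b1*) and -26 bases (*Syvn1*), counted from 0 at the transcription start. The UPR element core, TGACG followed directly by TGG, was found in 0.714% of genes and in no member. The core of the amino acid and stress response element, TGATG followed by any base and AA, which ATF4 and CHOP are known to bind as part of a longer site, was found in 4.51% of genes and in 4 members. They were *Asns*, *Chac1*, *Herpud1* and *Trib3*, and *Trib3* carried it after the start. The first 3, whose matches lie before the start, are printed.
*Asns*, chr6:7693213-7693244, minus strand: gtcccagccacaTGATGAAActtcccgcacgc
*Chac1*, chr2:119351037-119351068, plus strand, core reversed: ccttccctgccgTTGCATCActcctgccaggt
*Herpud1*, chr8:94386305-94386336, plus strand, core reversed: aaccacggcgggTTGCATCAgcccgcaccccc

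A heat shock element, GAA, TTC and GAA with any 2 bases between neighbours, was found in 0.662% of genes and in 3 members, *Hsph1*, *Hspd1* and *Hspe1*. The last 2 are read in opposite directions from a shared promoter, and 1 stretch between them holds overlapping matches on both strands. It is printed on the plus strand, which is the strand of *Hspe1*, with the overlapping matches in capitals.
*Hspe1* and *Hspd1*, chr1:55088053-55088082, plus strand: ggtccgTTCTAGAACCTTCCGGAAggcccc
No window of the HSP70 genes *Hspa1a* and *Hspa1b*, of *Hspb1*, *Dnajb1* or *Dnaja1* held these letters. A match describes a sequence and does not show that a factor binds there, and a window without a match says nothing about the factor.

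**Figure D1:**
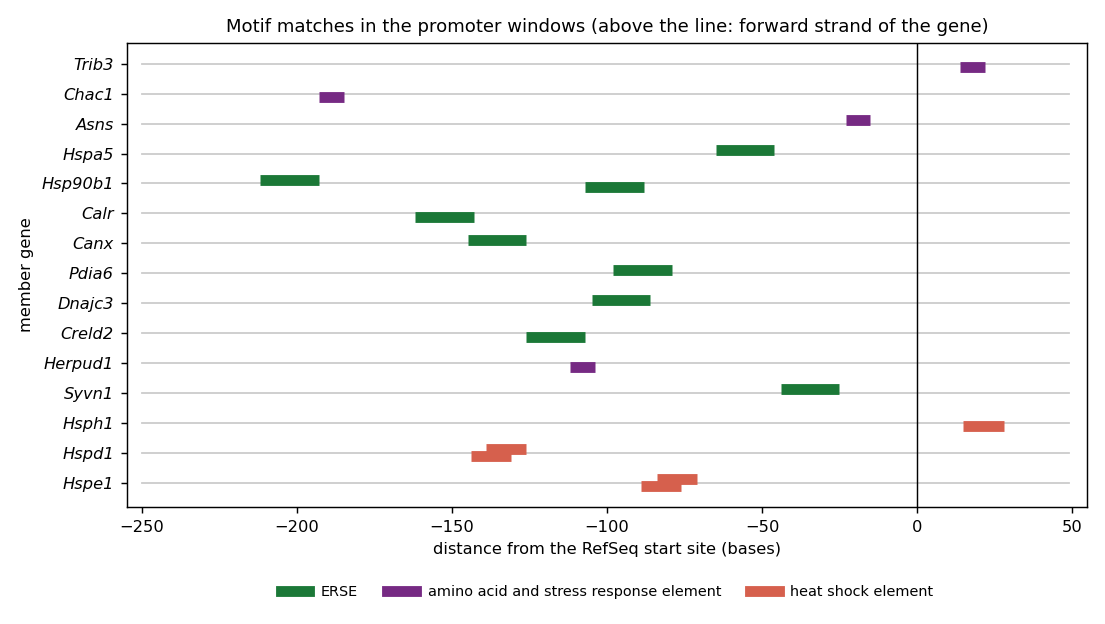
Position of the motif matches in the promoter windows of members, in bases from the transcription start (horizontal axis), with 1 line per gene and a mark per match, coloured by motif. The ER stress response element sits upstream of the start in 7 ER chaperone genes and in *Syvn1*, and the heat shock element in *Hspd1* and *Hspe1*.

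Expression is given as FPKM, which scales the fragments of a gene to its length and to the mapped fragments of the library. From the steps between low values, the libraries held about 1126940 to 1320360 fragments on genes in 4 mice and 2848720 in WT replicate 3, which was the deepest. The limma test took the 16286 symbols whose mean reached 1 FPKM, on log2(FPKM + 1), and differences are given as Ins2-AKITA minus WT. At an adjusted p under 0.05, 4 genes were lower (0.0246% of those tested) and 0 were higher in Ins2-AKITA, with 477 lower (2.93%) and 249 higher (1.53%) at an unadjusted p under 0.05. Markers describe the cells in the fragments, but without a sample of another tissue they cannot show an enrichment of vessels. Endothelial markers summed to 363 to 649 FPKM in WT mice, against 322 and 394 in Ins2-AKITA mice, and no marker was at 0 in any mouse. Markers of other brain cells were also present: astrocyte markers summed to 1316 to 1962 in WT and to 2359 and 2653 in Ins2-AKITA, and all 5 had a higher mean in Ins2-AKITA (median difference 0.61). All 3 smooth muscle markers were lower at an unadjusted p under 0.05 (median -0.61, sums of 209 to 248 and of 129 and 165). All 6 endothelial markers had a lower mean in Ins2-AKITA (median -0.39). The median was -0.47 for pericyte, -0.95 for erythroid, -0.10 for neuron, -0.15 for oligodendrocyte and 0.25 for microglia markers. Over the 5 mice, oligodendrocyte markers summed to 1875 to 2554 FPKM and neuron markers to 465 to 558. In whole fragments, fewer cells of a type and less RNA per cell cannot be told apart, and the part of these markers in the results that follow was not tested.

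FPKM is scaled by gene length, so levels can be set roughly side by side between genes. Removal of duplicates can lower abundant short genes, which limits such a ranking. The highest mean levels of the 40 genes were those of the constitutive cytosolic chaperones *Hsp90ab1* and *Hspa8*, followed by the ER chaperones *Calr*, *Canx* and *Hsp90b1*. These 5 genes made up from 58.9% (WT replicate 2) to 63.7% (Ins2-AKITA replicate 2) of the summed FPKM of the members in a mouse. The lowest were *Trib3* and *Chac1*, at mean levels of 0.930 and 0.878 FPKM over the mice, and these 2 were not tested. The other 38 were tested, and none of them passed only through its higher group.

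**Figure D2:**
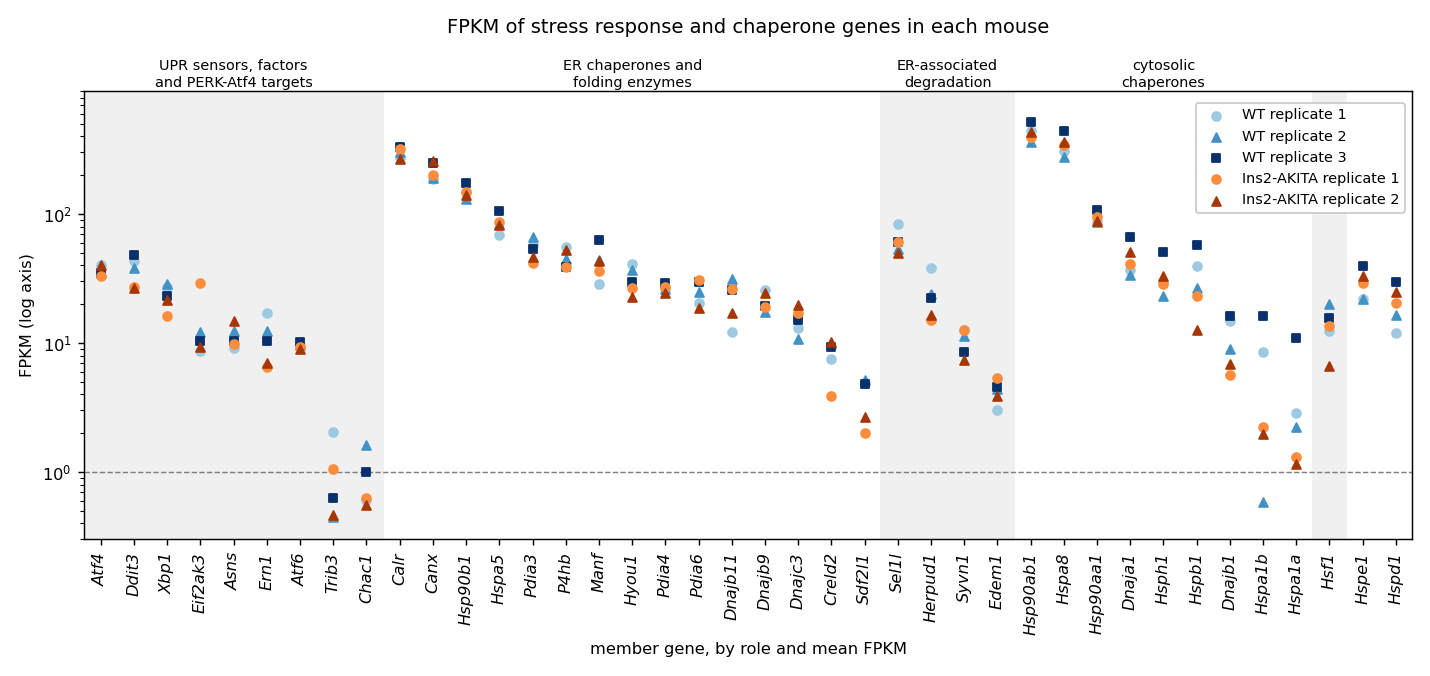
FPKM of each member (log axis) in each of the 5 mice, ordered by role and by mean level, with WT and Ins2-AKITA mice in different colours. The levels run from below 1 FPKM for *Chac1* and *Trib3* to 521 for *Hsp90ab1* in WT replicate 3, and for most genes the points of the genotypes overlap.

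No member passed the test between genotypes: 0 of 38 had an adjusted p under 0.05, and the smallest was 0.896. At an unadjusted p under 0.05, 6 of 38 members (15.8%) were lower in Ins2-AKITA, against 2.93% of all genes tested, and 0 were higher, against 1.53%. The 6 were *Ern1*, *Ddit3*, *Sdf2l1*, *Herpud1*, *Hspb1* and *Dnajb1*. The count changed with the mice included. It was 1 without WT replicate 1 (*Ddit3*), 5 without WT replicate 2 and 4 without WT replicate 3. The share of all genes tested was 2.13%, 1.96% and 5.72% in the same order. Each of these fits holds 1 mouse fewer, and the part of that in the count was not tested. Both Ins2-AKITA values lay below all 3 WT values in 11 of 38 members (28.9%), against 10.3% of all genes. Both lay above in 1 (2.63%), against 9.24% of all genes. In sum 28 members had a lower and 10 a higher mean log2 level, against 53.5% of all genes tested with a lower one, and the median difference was -0.07, against -0.03 over all genes tested. Members respond to shared regulators and are not independent of each other, so these counts describe the 5 libraries.

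**Figure D3:**
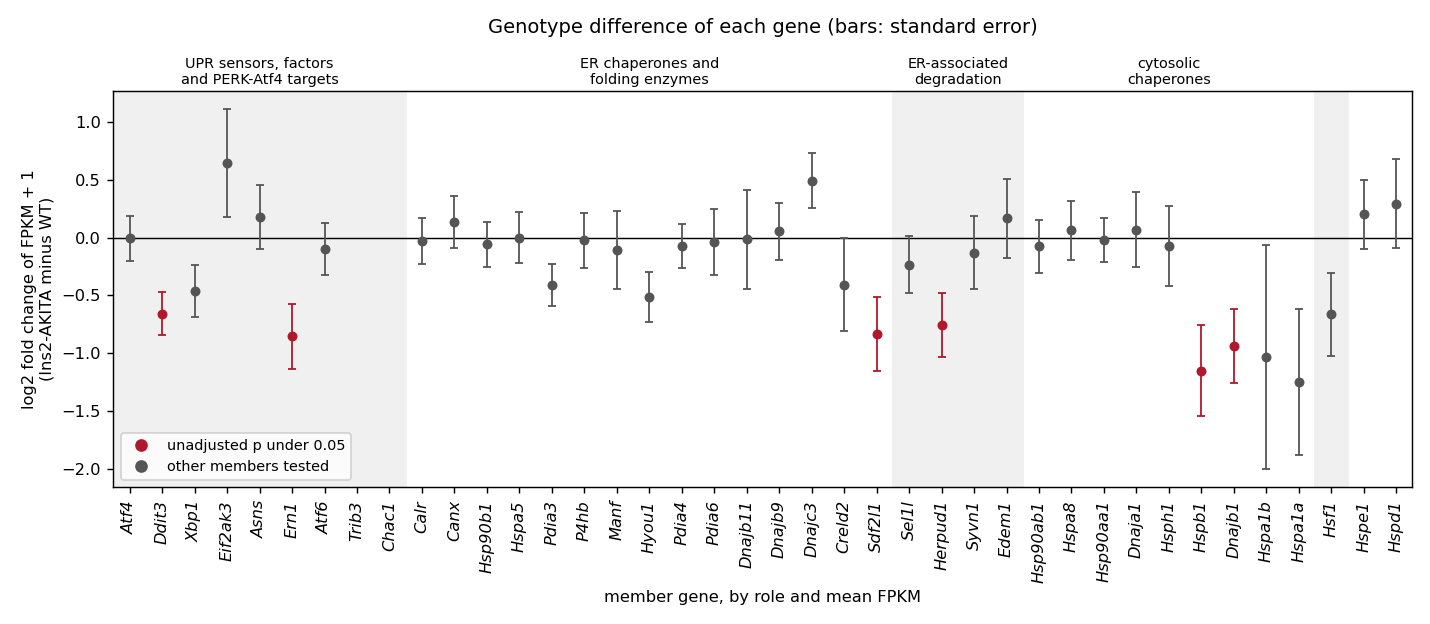
Log2 difference, Ins2-AKITA minus WT, with its standard error from limma for the 38 members tested, grouped by role, with a line at 0. The members with an unadjusted p under 0.05 all lie below the line, and the abundant chaperones *Hspa5*, *Hsp90b1*, *Calr*, *Hspa8* and *Hsp90ab1* lie close to it.

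None of the 3 sensors of the UPR passed the adjusted test. *Ern1* (ENSMUSG00000020715, NCBIM37 chr11:106255964-106349166) measured 17.0, 12.4 and 10.3 FPKM in WT mice, against 6.49 and 6.97 in Ins2-AKITA mice. Every WT mouse was higher than both Ins2-AKITA mice, and WT replicate 1 was the highest. Group means came to 13.2 ± 3.42 (SD, n = 3) in WT and 6.73 ± 0.343 (SD, n = 2), a difference of -0.85 on the log2(FPKM + 1) scale (SE 0.28, limma p = 0.0221, adjusted p = 0.896, exact permutation p = 0.1). The permutation test runs over the 10 splits of the mice, and 0.1 is the smallest p it allows. With TPM centred on the median the difference was -0.57. TPM divides by the FPKM sum of a library, which differed widely, before 1 is added. The added 1 thus weighs unequally between mice in that setting.

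*Eif2ak3* measured 8.71, 12.2 and 10.3 FPKM in WT mice, against 29.4 and 9.32 in Ins2-AKITA mice. Ins2-AKITA replicate 1 stood apart from the other 4 mice, and the groups overlapped. The difference was 0.65 (SE 0.47, adjusted p = 0.897) and turned to -0.13 without that mouse. *Eif2ak3* overlaps the small nucleolar RNA gene *SNORA5* by 136 bases on the same strand, and the part of that overlap was not tested. *Atf6* was nearly level, at 9.58, 9.74 and 10.2 FPKM in WT mice, against 9.31 and 8.91 in Ins2-AKITA mice. Its groups did not overlap, but the difference was only -0.10 (SE 0.23, adjusted p = 0.956).

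Of the transcription factors, *Ddit3* (ENSMUSG00000025408, NCBIM37 chr10:126727830-126733344) had the smallest p among the members. It measured 43.5, 38.5 and 47.8 FPKM in WT mice, against 27.0 and 26.8 in Ins2-AKITA mice. All WT mice were above both Ins2-AKITA mice, and the gap between the groups was wider than the spread within either. Group means came to 43.2 ± 4.66 (SD, n = 3) in WT and 26.9 ± 0.185 (SD, n = 2), a WT level 1.61 times that of Ins2-AKITA and a difference of -0.66 (SE 0.19, limma p = 0.0119, adjusted p = 0.896, exact permutation p = 0.1). The values rest on about 75, 76 and 203 fragments in WT mice, against 45 and 51 in Ins2-AKITA mice. *Ddit3* kept an unadjusted p under 0.05 in 13 of 14 alternative analyses. The exception was TPM centred on the median, with a difference of -0.20. Its end overlaps *Mars* on the other strand by 68 bases.

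*Xbp1*, the transcription factor made by IRE1 splicing, measured 27.4, 28.8 and 23.0 FPKM in WT mice, against 16.3 and 21.7 in Ins2-AKITA mice. Both Ins2-AKITA values were below all WT values, and the highest of them was close to WT replicate 3. The difference was -0.46 (SE 0.23, limma p = 0.0829, adjusted p = 0.896, exact permutation p = 0.1), and -0.071 with TPM centred on the median. Gene-level FPKM does not separate spliced from unspliced *Xbp1* mRNA, so the activity of IRE1 was not measured. *Atf4*, the effector of PERK, measured 40.4, 35.0 and 35.0 FPKM in WT mice, against 33.3 and 40.1 in Ins2-AKITA mice, with Ins2-AKITA replicate 1 the lowest mouse and replicate 2 inside the WT range. The difference was -0.01 (SE 0.19, adjusted p = 0.998) and 0.41 with TPM centred on the median. ATF4 is controlled mainly in translation, which RNA levels do not show.

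Of 3 listed targets of the PERK arm, *Chac1* and *Trib3* were under a mean of 1 FPKM. *Chac1*, which degrades glutathione, measured 0.607, 1.61 and 0.995 FPKM in WT mice, against 0.628 and 0.552 in Ins2-AKITA mice. These values are 1, 3 and 4 fragments in WT and 1 fragment in each Ins2-AKITA mouse, so no difference was detectable at this depth. *Trib3*, a pseudokinase that binds AKT, measured 2.04, 0.452 and 0.629 FPKM in WT mice, against 1.06 and 0.465 in Ins2-AKITA mice, which is about 5 fragments or fewer in any mouse. In WT replicate 1, 3 fragments correspond to 1.35 FPKM for *Trib3* and 1.82 for *Chac1*, and such floors cover counting error only. *Asns*, asparagine synthetase, was between 9.17 and 14.9 FPKM, with overlapping groups and a difference of 0.18 (SE 0.28). Over the 7 genes of this role tested (sensors, transcription factors and the target *Asns*), 5 had a lower and 2 a higher mean in Ins2-AKITA. The 2 were *Eif2ak3* and *Asns*, and the median difference was -0.10.

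On the deposited scale the median difference of the 15 ER chaperones and folding enzymes was -0.04, against -0.03 over all genes tested. It was 0.30 with TPM centred on the median, where the added 1 weighs unequally between mice. *Hspa5* falls outside the rule for printing every mouse and was added, with its values seen, as the best known reporter of the UPR. It measured 68.8, 82.98 and 104.7 FPKM in WT mice, against 86.2 and 82.3 in Ins2-AKITA mice. Both Ins2-AKITA mice lay inside the WT range, and WT replicate 3 was the highest. Group means came to 85.5 ± 18.1 (SD, n = 3) in WT and 84.3 ± 2.76 (SD, n = 2), a difference of -0.00042 (SE 0.22, adjusted p = 1.0).

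The 3 most abundant ER chaperones differed by less than their standard error on the deposited scale. *Calr*, the lectin chaperone calreticulin, measured 271, 301 and 328 FPKM in WT mice, against 319 and 268 in Ins2-AKITA mice (difference -0.03, SE 0.20). *Canx*, its membrane-bound partner calnexin, measured 186, 190.04 and 251 in WT mice, against 202 and 256 in Ins2-AKITA mice (difference 0.14, SE 0.22). *Hsp90b1*, the ER member of the HSP90 family, measured 149, 131 and 173 in WT mice, against 149 and 139.7 in Ins2-AKITA mice (difference -0.06, SE 0.19). With TPM centred on the median, under the same unequal weight of the added 1, the differences were 0.57, 0.72 and 0.51. The genotypes overlapped for all 3, and all 3 carry the ER stress response element printed above. *Pdia4*, *Pdia6* and *P4hb*, which form disulphide bonds, and *Dnajb9*, *Dnajb11*, *Manf* and *Creld2* also overlapped between the genotypes. Their differences ran from -0.41 (*Creld2*, SE 0.40, on 5 to 30 fragments) to 0.05 (*Dnajb9*, SE 0.25). *Manf* overlaps the transcripts of *Vprbp* and *Rbm15b*, so its values may hold their reads, depending on how strands and shared exons were counted.

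In 4 of the 15 ER genes the groups did not overlap. Both Ins2-AKITA values were below all WT values in 3, against 10.3% of all genes tested, and above them in 1, against 9.24%. *Pdia3*, the disulphide isomerase that works with calnexin and calreticulin, measured 57.1, 65.9 and 53.9 FPKM in WT mice, against 41.8 and 46.2 in Ins2-AKITA mice. The difference was -0.41 (SE 0.18, limma p = 0.0659, adjusted p = 0.896, exact permutation p = 0.1), and it was 0.092 with TPM centred on the median. *Hyou1*, the large HSP70-like exchange factor of BiP, measured 41.0, 36.6 and 29.9 FPKM in WT mice, against 26.6 and 22.7 in Ins2-AKITA mice. All WT mice were again above, with WT replicate 3 nearest to Ins2-AKITA, and the difference was -0.52 (SE 0.22, limma p = 0.0527, adjusted p = 0.896, exact permutation p = 0.2). It was -0.077 with TPM centred on the median.

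*Sdf2l1*, a partner of the ER co-chaperone *Dnajb11*, measured 4.86, 5.14 and 4.78 FPKM in WT mice, against 2.01 and 2.65 in Ins2-AKITA mice. The WT mice were tight and well above both Ins2-AKITA mice, but the values are 5, 6 and 12 fragments against 2 and 3. The difference was -0.84 (SE 0.32, limma p = 0.0378, adjusted p = 0.896, exact permutation p = 0.1). *Dnajc3*, a co-chaperone of BiP that also inhibits PERK, was the only member with both Ins2-AKITA values on top. It measured 13.1, 10.7 and 15.1 FPKM in WT mice, against 17.2 and 19.9 in Ins2-AKITA mice, on 70 to 214 fragments. The Ins2-AKITA mean was 1.43 times that of WT, and the difference was 0.49 (SE 0.24, limma p = 0.0836, adjusted p = 0.896, exact permutation p = 0.2).

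Among the 4 genes of ER-associated degradation, *Herpud1* stood lowest against WT. *Herpud1*, a membrane scaffold of the retrotranslocation complex, measured 37.9, 23.9 and 22.4 FPKM in WT mice, against 15.0 and 16.5 in Ins2-AKITA mice. Both Ins2-AKITA values were below all WT values, and WT replicate 1 was far above the other WT mice. Group means came to 28.1 ± 8.57 (SD, n = 3) in WT and 15.7 ± 1.10 (SD, n = 2), with a difference of -0.76 (SE 0.28, limma p = 0.033, adjusted p = 0.896, exact permutation p = 0.1). The difference was -0.53 without WT replicate 1 and -0.34 with TPM centred on the median. The unadjusted p of *Herpud1* was over 0.05 in 6 of 14 alternatives.

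*Sel1l* and *Syvn1* encode the adaptor and the ubiquitin ligase of the same complex. *Sel1l* measured 83.9, 53.9 and 60.3 FPKM in WT mice, against 60.6 and 49.9 in Ins2-AKITA mice, with a difference of -0.23 (SE 0.25). *Syvn1* measured 12.6, 11.4 and 8.55 in WT mice, against 12.6 and 7.40 in Ins2-AKITA mice, with a difference of -0.13 (SE 0.31). Both overlapped between the genotypes, as did the mannosidase-like gene *Edem1*, at 3.04 to 5.35 FPKM (difference 0.17, SE 0.34). The median over the 4 genes was -0.18 and turned to 0.061 without Ins2-AKITA replicate 2.

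The cytosolic chaperones followed 1 mouse more than the genotype. WT replicate 3 was the highest of the 5 mice in 9 of 9 cytosolic chaperones, against 11.1% of all genes tested. Over all genes the highest mouse was WT replicate 1 in 28.4%, WT replicate 2 in 21.2%, Ins2-AKITA replicate 1 in 16.8% and Ins2-AKITA replicate 2 in 22.4%. The same held in 2 of 2 mitochondrial chaperones, in 5 of 15 ER chaperones and in 0 of 4 degradation genes. The level of WT replicate 3 over the mean of the other WT mice had a median of 1.74 in the cytosolic group, 1.15 in the ER group and 0.905 over all genes. A list of 34 other cytosolic and mitochondrial chaperones and co-chaperones had a median of 1.16, and Ins2-AKITA replicate 2 was its most frequent highest mouse (15 genes, against 11 for WT replicate 3). This library was also the deepest, and the part of depth in the result was not tested.

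The 5 cytosolic chaperones given here, set together by their values, had differences from -0.08 to 0.07 on the deposited scale. Each was smaller than its standard error. *Hsp90ab1* measured 443, 365 and 521 FPKM in WT mice, against 399 and 433 in Ins2-AKITA mice (difference -0.08, SE 0.23). *Hspa8*, the constitutive HSP70, measured 309, 277 and 440.5 in WT mice, against 339.9 and 360.3 in Ins2-AKITA mice (difference 0.06, SE 0.25). *Hsp90aa1*, the inducible HSP90, measured 86.3, 86.0 and 107 in WT mice, against 95.0 and 87.7 in Ins2-AKITA mice (difference -0.02, SE 0.19). All 3 overlapped, as did the co-chaperone *Dnaja1* (33.4 to 66.2 FPKM, difference 0.07) and the exchange factor *Hsph1* (23.3 to 50.9 FPKM, difference -0.07). With TPM centred on the median the differences were larger and above 0, at 0.66 for *Hspa8*, 0.53 for *Hsp90ab1*, 0.51 for *Hsp90aa1*, 0.47 for *Dnaja1* and 0.27 for *Hsph1*. That setting weighs the added 1 unequally between mice, so these values are not differences of genotype alone.

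The other 4 cytosolic chaperones, *Hspb1*, *Dnajb1*, *Hspa1a* and *Hspa1b*, had lower mean levels in Ins2-AKITA and are set together here by their values. Of all 9 cytosolic chaperones, 2 (22.2%) were lower at an unadjusted p under 0.05, against 2.93% of all genes tested. *Hspb1* (NCBIM37 chr5:136363789-136365433), which encodes a small heat shock protein, measured 39.4, 26.6 and 57.5 FPKM in WT mice, against 23.1 and 12.6 in Ins2-AKITA mice. All WT mice were above both Ins2-AKITA mice, but the WT values varied widely, and WT replicate 2 was near Ins2-AKITA replicate 1. Group means came to 41.2 ± 15.5 (SD, n = 3) in WT and 17.8 ± 7.45 (SD, n = 2), with a difference of -1.15 (SE 0.39, limma p = 0.0246, adjusted p = 0.896, exact permutation p = 0.2).

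*Dnajb1*, the HSP40 that partners the inducible HSP70, measured 14.7, 8.93 and 16.2 FPKM in WT mice, against 5.67 and 6.88 in Ins2-AKITA mice. The groups did not overlap, and WT replicate 2 was again the WT mouse nearest to Ins2-AKITA. Group means came to 13.3 ± 3.85 (SD, n = 3) in WT and 6.27 ± 0.853 (SD, n = 2), with a difference of -0.94 (SE 0.32, limma p = 0.0243, adjusted p = 0.896, exact permutation p = 0.2). With 1 mouse left out, *Hspb1* had an unadjusted p under 0.05 only without WT replicate 2 and without Ins2-AKITA replicate 1, and *Dnajb1* only without WT replicate 2. With TPM centred on the median *Hspb1* differed by -0.72 and lost its unadjusted p under 0.05.

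*Hspa1a* (chr17:35106144-35109069) and *Hspa1b* (chr17:35093381-35096183) encode the inducible HSP70 and lie side by side. Of the stretches of 50 bases in their transcripts, 1710 are shared, which is 59.4% of those of *Hspa1a* and 61.2% of those of *Hspa1b*, so reads can be split between them and each value is uncertain. *Hspa1a* measured 2.85, 2.24 and 10.9 FPKM in WT mice, against 1.31 and 1.15 in Ins2-AKITA mice, on 9, 8 and 84 fragments against 4 and 4. The groups did not overlap, and WT replicate 3 was 4.28 times the mean of the other WT mice. *Gm20481* overlaps *Hspa1a* by 2213 bases on the other strand. The *Hspa1a* values may hold its reads, depending on how strands were counted. *Hspa1b* measured 8.49, 0.588 and 16.1 FPKM in WT mice, against 2.24 and 1.96 in Ins2-AKITA mice, with WT replicate 2 the lowest of all mice. Summed, the pair measured 11.3, 2.83 and 27.0 in WT mice, against 3.56 and 3.12 in Ins2-AKITA mice. The genotypes overlapped through WT replicate 2 (difference -1.34, exact permutation p = 0.4).

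*Hsf1*, which encodes the transcription factor of the heat shock genes, measured 12.4, 20.04 and 15.6 FPKM in WT mice, against 13.7 and 6.64 in Ins2-AKITA mice. Ins2-AKITA replicate 2 was the lowest mouse and replicate 1 lay inside the WT range, so the groups overlapped (difference -0.66, SE 0.36, limma p = 0.113, adjusted p = 0.896, exact permutation p = 0.3). The activity of HSF1 is set by release and phosphorylation of the protein, which its RNA does not show. Immediate early genes, which like the heat shock genes are known to respond to tissue handling, are given beside them. Of 12 listed, 10 had a lower and 2 a higher mean in Ins2-AKITA (median -0.37), against 53.5% of all genes tested with a lower one. Both Ins2-AKITA values lay below all WT values in 6 of the 12, against 10.3% of all genes tested. WT replicate 3 was the highest mouse in 3 of the 12, against 11.1% of all genes tested. Their summed FPKM was 218, 252 and 254 in WT mice, against 179 and 184 in Ins2-AKITA mice. *Zfp36* and *Ier3* were lower at an unadjusted p under 0.05 (2 of 12, against 2.93% of all genes tested), and neither passed the adjustment. Their part in the heat shock values was not tested.

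Within each mouse, the ER and the cytosolic chaperones were set against each other, which does not depend on the scaling of a library. The summed FPKM of the 15 ER genes was 967, 1022 and 1176 in WT mice, against 1027 and 1029 in Ins2-AKITA mice. That of the 9 cytosolic genes was 970.3, 823 and 1287 in WT mice, against 936 and 987 in Ins2-AKITA mice. The ER sum stayed within a narrower range than the cytosolic sum, whose extremes were both WT mice. The ratio of ER to cytosolic sums was 0.997, 1.24 and 0.914 in WT (1.05 ± 0.170, SD, n = 3) and 1.10 and 1.04 in Ins2-AKITA (1.07 ± 0.0389, SD, n = 2), so both Ins2-AKITA mice lay inside the WT range.

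Sums follow the most abundant genes, so the mean log2 FPKM, which weighs each gene equally, was also compared. ER minus cytosolic was -0.13, 0.71 and -0.59 in WT mice, against 0.35 and 0.49 in Ins2-AKITA mice. WT replicates 2 and 3 were the extremes, and both Ins2-AKITA mice lay between them. In the cytosolic group the mean log2 level was 5.26, 4.55 and 5.95 in WT mice, against 4.71 and 4.67 in Ins2-AKITA mice. In the ER group it was 5.13, 5.26 and 5.37 in WT mice, against 5.06 and 5.16 in Ins2-AKITA mice, a far smaller spread. Between genotypes the median difference was -0.04 for ER and -0.08 for cytosolic chaperones, 0.040 apart. That distance ran from -0.025 to 0.25 when a mouse was left out, so no order of the groups by genotype held against the spread of the mice.

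**Figure D4:**
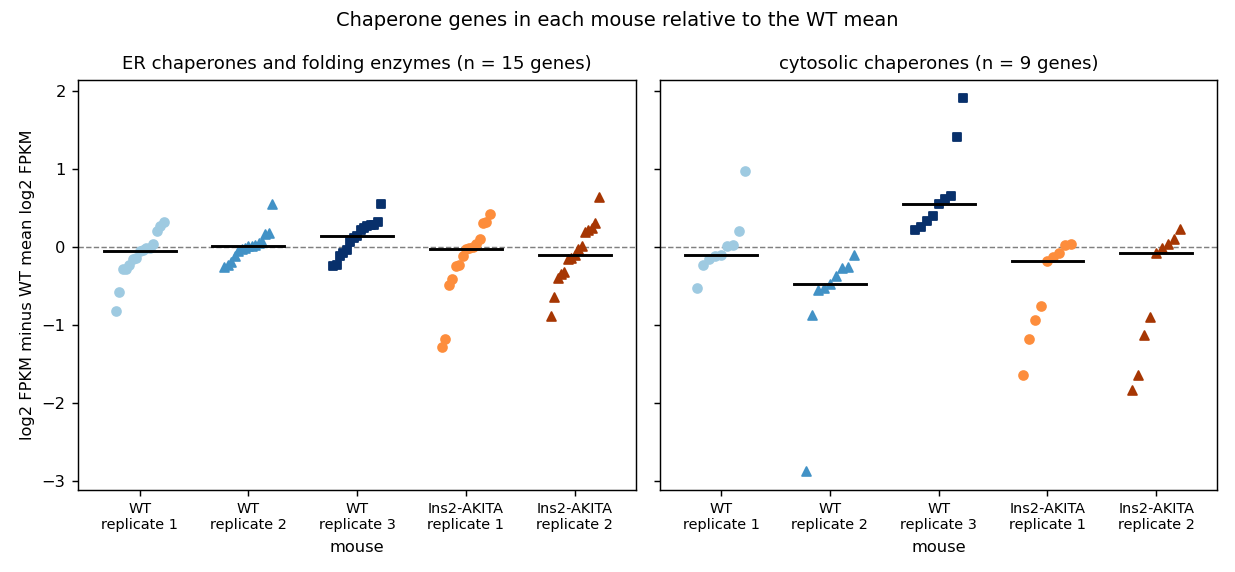
Log2 FPKM of each gene minus its WT mean log2 FPKM in each of the 5 mice, with a bar at the median. The 15 ER chaperones and the 9 cytosolic chaperones are in separate panels. The cytosolic medians run from -0.49 to 0.55 in WT mice, against -0.18 and -0.078 in Ins2-AKITA mice. The ER medians run from -0.053 to 0.13 in WT mice, against -0.032 and -0.10 in Ins2-AKITA mice.

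The mitochondrial pair encodes the folding chamber HSP60 (*Hspd1*) and its lid HSP10 (*Hspe1*). *Hspd1* measured 11.9, 16.5 and 29.7 FPKM in WT mice, against 20.3 and 24.8 in Ins2-AKITA mice. *Hspe1* measured 22.04, 22.05 and 39.3 in WT mice, against 29.1 and 32.8 in Ins2-AKITA mice. Both genes ordered the mice in the same way, with WT replicate 3 highest, Ins2-AKITA mice in the middle and WT replicate 1 lowest, which for *Hspe1* was level with WT replicate 2. They share the promoter printed above, and the annotated genes overlap by 112 bases on opposite strands. The differences were 0.29 (SE 0.38) and 0.20 (SE 0.30), and neither passed the test.

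Other genes of the same pathways, listed as background to the members, were read from the same test. Of 34 other ER and stress response genes, 33 were tested, and 0 passed the adjusted test. Of the 33, 20 had a lower and 13 a higher mean in Ins2-AKITA (median -0.09), against 53.5% of all genes tested with a lower one. At an unadjusted p under 0.05, 2 of 33 were lower and 2 higher, against 2.93% and 1.53% of all genes tested. *Ssr2*, a subunit of the complex beside the ER translocon, measured 14.6, 13.7 and 15.7 FPKM in WT mice, against 8.48 and 9.11 in Ins2-AKITA mice (difference -0.67, SE 0.22). *Eif2ak2*, the kinase PKR, which acts on the same translation factor as PERK, measured 11.2, 12.6 and 11.1 in WT mice, against 6.29 and 7.42 in Ins2-AKITA mice (difference -0.69, SE 0.24). For both, all WT mice were above both Ins2-AKITA mice.

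The 2 genes in the other direction were *Nupr1* and *Erlec1*. *Nupr1*, a small stress-induced chromatin protein, measured 9.08, 11.3 and 13.4 FPKM in WT mice, against 17.6 and 23.3 in Ins2-AKITA mice (difference 0.81, SE 0.26). *Erlec1*, a lectin of ER-associated degradation, measured 30.2, 30.1 and 27.4 in WT mice, against 42.0 and 39.1 in Ins2-AKITA mice (difference 0.46, SE 0.18). Both Ins2-AKITA mice were above all WT mice for these 2, and all 4 genes had an adjusted p of 0.896. Of the 34 other cytosolic and mitochondrial chaperones, 18 had a lower and 16 a higher mean in Ins2-AKITA (median -0.01). Over all genes tested, 53.5% had a lower mean. None of the 34 had an unadjusted p under 0.05.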

How the data were processed

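RNA of brain microvascular fragments was depleted of ribosomal and transfer RNA and made into stranded total RNA libraries from low input. Per the submitters' processing notes and the study's methods, reads were mapped to NCBIM37 with TopHat2 (2.0.4), duplicates were removed with Picard (1.92) and groups were tested with Cufflinks (2.2.1). The authors deposited FPKM for each gene, from 1 library a mouse. The program behind them, the Ensembl release and the strand setting are not given in the sources used here. Removing duplicates can lower abundant short genes, and division by length can inflate genes near the fragment size.

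Of 37982 identifiers, 37197 matched GENCODE vM1 and 785 did not. FPKM of identifiers sharing a symbol were summed. Symbols whose mean reached 1 FPKM (16286, with 38 of the 40 members) were fitted with limma 3.58.1 in R 4.3.3 (trend, genotype only, two-sided, Benjamini-Hochberg over all genes tested) on log2(FPKM + 1), which understates changes of low genes. Exact two-sided permutation tests used the 10 splits of the 5 mice and cannot go below 0.1. Fragments were estimated with Python 3.11.15 from the steps of low FPKM values and exon lengths (98.0% to 98.5% of low values lay within 0.1 of a whole number) and served only to describe depth. Labels number separate mice, and no 2 libraries shared values. Alternatives were 2 filters, a pseudocount of 0.1, 3 scalings, a constant prior, the highest identifier per symbol, the replicate block and leaving out each mouse. Replicate numbers occur in both genotypes without naming pairs, so the main comparison had no block.

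Members and lists were chosen with earlier results of these data known. Every mouse is printed for members among the 3 highest of their role, with groups that do not overlap, with an unadjusted p under 0.05 or a mean FPKM under 1, for the sensors, transcription factors and the HSP70 pair, and for other pathway genes with an unadjusted p under 0.05.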

Additional observations from a re-analysis of the deposited data

How the results depend on the processing

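No member had an adjusted p under 0.05 in any of the 14 alternatives. Of the members' differences under these, 467 kept their direction and 62 turned it. Over all genes, the 4 lower genes became 2 without a filter, 2 with a filter at a mean FPKM of 5 and 2 with a constant prior, and 2 to 10 without 1 mouse. The 0 higher genes became 1 with a constant prior, 1 with TPM centred on the median and 0 to 10 without 1 mouse. Before centring, TPM moved the median of all genes by 1.07 on the log2 scale. FPKM of a library summed to 1.30e+07, 1.22e+07 and 3.54e+06 in WT mice, against 4.02e+06 and 1.53e+06 in Ins2-AKITA mice. TPM divides by this sum before 1 is added, so the added 1 weighs most in WT replicates 1 and 2. Differences under this setting hold that unequal weight beside any difference of genotype. With TPM centred, the median difference was 0.30 for ER and 0.27 for cytosolic chaperones, and *Atf4* (0.41), *Hspa5* (0.51), *Hsp90b1* (0.51), *Calr* (0.57), *Pdia3* (0.092), *Pdia4* (0.27), *Pdia6* (0.25), *P4hb* (0.44), *Dnajb11* (0.21), *Manf* (0.30), *Edem1* (-0.23), *Sel1l* (0.27), *Hsph1* (0.27), *Hsp90aa1* (0.51) and *Hsp90ab1* (0.53) turned direction. With median-ratio scaling *Atf4* (0.020), *Hspa5* (0.026), *P4hb* (0.0018), *Dnajb11* (0.012) and *Hsp90aa1* (0.0063) did.

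With the replicate block, 1 member was higher at an unadjusted p under 0.05 (*Hspd1*), the medians were 0.035 for ER and 0.047 for cytosolic chaperones, and their distance was -0.012. *Hspa5* (0.15), *Hsp90b1* (0.045), *Calr* (0.035), *Pdia6* (0.092), *Dnajb11* (0.12), *Manf* (0.16), *Hsph1* (0.24), *Hsp90aa1* (0.082) and *Hsp90ab1* (0.047) turned direction. WT replicate 3 has no partner, so these fold changes are those without it. Deviations of mice with the same number correlated at 0.051 and -0.034. The deviations of the 2 Ins2-AKITA mice mirror each other, so these values can neither show nor exclude a shared litter or batch. The block moved genes at an unadjusted p under 0.05 from 249 to 440 higher and from 477 to 809 lower.

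Leaving out 1 mouse moved the members lower at an unadjusted p under 0.05 over 1 to 5 (1 without WT replicate 1, 3 without either Ins2-AKITA mouse) and those higher over 0 to 1 (*Eif2ak3* without Ins2-AKITA replicate 2). The medians ran from -0.14 to 0.035 (ER), -0.31 to 0.047 (cytosolic) and -0.43 to 0.061 (degradation). For the sensors, transcription factors and PERK arm targets the median ran from -0.23 to -0.12. The ER to cytosolic distance ran from -0.025 to 0.25. Members that turned direction ranged as follows: *Asns* -0.10 to 0.46, *Atf4* -0.14 to 0.13, *Calr* -0.16 to 0.094, *Canx* -0.032 to 0.31, *Creld2* -1.01 to 0.19, *Dnaja1* -0.12 to 0.37, *Dnajb11* -0.40 to 0.29, *Dnajb9* -0.12 to 0.22, *Edem1* -0.028 to 0.36, *Eif2ak3* -0.13 to 1.43, *Hsp90aa1* -0.077 to 0.082, *Hsp90ab1* -0.21 to 0.047, *Hsp90b1* -0.16 to 0.045, *Hspa5* -0.14 to 0.15, *Hspa8* -0.077 to 0.26, *Hsph1* -0.31 to 0.24, *Manf* -0.39 to 0.16, *P4hb* -0.24 to 0.19, *Pdia6* -0.38 to 0.31 and *Syvn1* -0.48 to 0.22. The cause of these moves was not tested beyond the mouse or scaling named. With 1 Ins2-AKITA mouse left, its spread is assumed to be that of the others. Low depth limits *Chac1*, *Trib3*, *Sdf2l1*, *Creld2* and the HSP70 pair. P-values rest on 5 mice.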
